A study of Mus musculus with 17 samples.

Results

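Cells sorted from the mouse embryonic cortex at embryonic day 18 (E18) were compared with cells sorted at embryonic day 14 (E14), on 7 of the 17 Affymetrix expression arrays of the series. The arrays were taken by their titles: 4 hold GFP-positive, Prominin-positive E18 cells (replicates 2, 3, 4 and 5) and 3 hold GFP-low, Prominin-positive E14 cells (replicates 1, 2 and 3). All embryos were hGFAP eGFP mice, in which a human GFAP promoter drives an enhanced green fluorescent protein, so GFP reports that promoter and not the mouse Gfap gene. Prominin is the surface protein encoded by Prom1, carried on the apical membrane of neuroepithelial and radial glial cells. The label for E18 gives GFP as positive without splitting it into high and low, whereas E14 cells were split, so age and the GFP gate differ together and cannot be told apart in this comparison. A further 4 arrays of GFP-high, Prominin-positive E14 cells are given beside it. Nothing in the labels ties a replicate to a litter or an animal of its own. The p-values therefore cover only the spread among these RNA samples, part of which may be technical.

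Radial glia are the stem and progenitor cells of the embryonic cortex. They line the ventricle, give rise to neurons directly or through basal progenitors during midgestation, and turn towards the production of astrocytes and oligodendrocytes around birth. Deep-layer neurons are born before upper-layer neurons, while GABAergic interneurons and the first oligodendrocyte precursors reach the cortex from ventral forebrain. The comparison addresses how the sorted populations of the neurogenic and the late embryonic cortex differ in gene expression.

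Each gene is given on a log2 scale of normalised intensity, log2(intensity + 16), as read by 1 probe set, so a difference of 1 is a 2-fold change and small values understate it. The mean level of 71 olfactory and vomeronasal receptor genes, which these cells are not known to use, gave a background level of 5.44 (their 95th percentile). Where the lower of the 2 group means did not exceed it, no fold is given. A gene was called changed at an adjusted p under 0.05 (limma with Benjamini-Hochberg adjustment over 18193 genes). E18 values are listed for replicates 2, 3, 4 and 5 and E14 GFP-low values for replicates 1, 2 and 3, in that order. In sorted populations, fewer cells of a type and less RNA per cell cannot be told apart.

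Several array controls lay apart between the groups. The middle probe set for 18S ribosomal RNA read 302 to 583 intensity units at E18 and 2290 to 2630 in E14 GFP-low cells, with no overlap (log2 difference -2.35, exact permutation test, two-sided p = 0.0571, the smallest that 35 splits of 7 arrays allow). The 3′ probe set of 18S also did not overlap (difference -1.78, exact two-sided p = 0.0571), whereas the 5′ probe set read 1270 to 6720 against 4530 to 5440 and did (difference -0.87, exact two-sided p = 0.2286). The log2 ratio of the 3′ to the 5′ Gapdh control, a measure of how far labelled RNA extends from its 3′ end, was -0.117, 1.0, -0.211 and 0.478 at E18 against 1.80, 0.923 and 2.30 in E14 GFP-low cells (difference -1.39, exact two-sided p = 0.1143). Here E18 replicate 3 and E14 GFP-low replicate 2 overlapped. The same ratio for Actb differed by -0.31 (exact two-sided p = 0.4). The dap poly-A control read 1050 to 2790 at E18 and 3.85 to 18.2 in E14 GFP-low cells, and 4080 in replicate 1 of the E14 GFP-high cells. The other poly-A controls, thr, phe and lys, were also higher in every E18 array than in every E14 GFP-low array (thr 257 to 879 against 1.87 to 7.67). Whatever sets the poly-A signals apart thus differs together with age and the GFP gate and cannot be told apart from them. All these controls were measured on the same arrays as the genes. Their part in the gene differences was not tested beyond the fit with the Gapdh ratio as a covariate, whose counts are given for many of the gene lists.

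**Figure D1:**
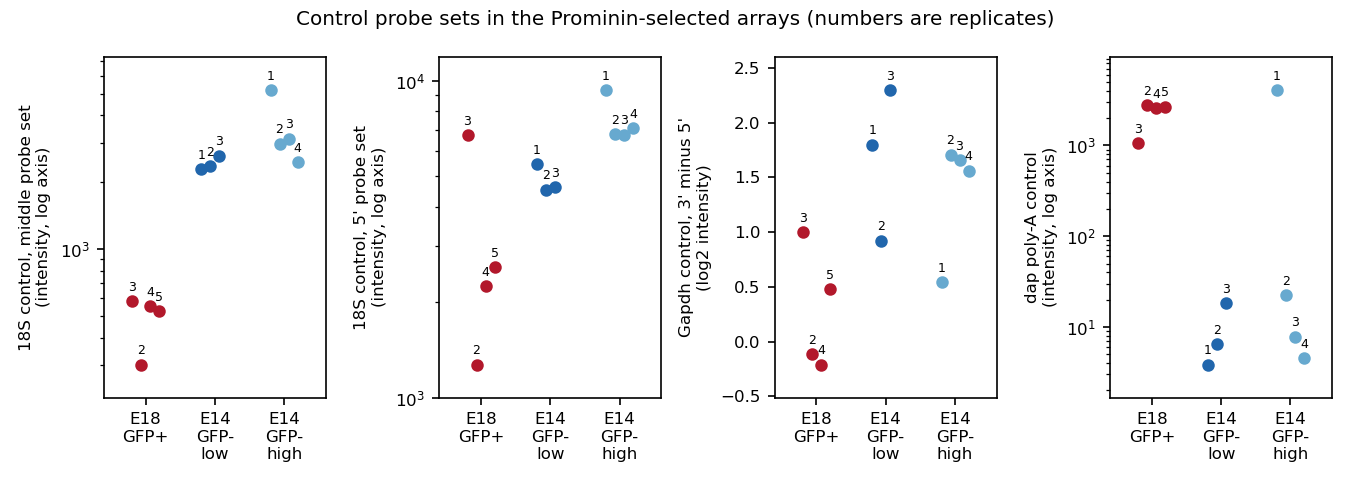
Control signals of the 11 Prominin-selected arrays, 1 point per array with its replicate number; 18S and dap are intensities on log axes and the Gapdh control is a log2 ratio of its 3′ to its 5′ probe set. E18 arrays lie below every E14 array for the middle 18S probe set (302 to 583 against at least 2290), while E18 replicate 3 stands with the E14 arrays for the 5′ 18S probe set.

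Of 18193 genes, 3166 (17.4%) were changed: 1095 (6.02%) were higher and 2071 (11.4%) lower at E18. Counts of called genes in the lists below are to be read beside these shares. Some genes, such as Olig1, Tnc, Fezf2 and Nr2f1, belong to several lists, so the counts of different lists are not independent. At least 2-fold, 449 were higher and 638 lower. The median difference of all genes was -0.10, and 5511 genes had an unadjusted p under 0.05. The 4 E18 arrays did not overlap the 3 E14 GFP-low arrays for 28.8% of genes. The split between directions depended on scaling: median centring, which moved the median of all genes to -0.23, gave 649 higher and 2406 lower, and quantile normalisation over the gene table alone gave 1421 higher and 1446 lower. With the Gapdh control ratio as a covariate, 1387 genes were changed (582 higher, 805 lower). For reference, 10.2% of genes were higher and 16.5% lower in E18 than in E14 GFP-high cells, while 0.478% were higher and 1.2% lower in E14 GFP-high than in E14 GFP-low cells. These comparisons share arrays with the main one. The first principal component of the 11 arrays held 43.2% of the variance and set all 4 E18 arrays apart from all E14 arrays. The second (12.3%) set apart E14 GFP-low replicate 3, without which 2338 genes were changed (852 higher, 1486 lower).

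**Figure D2:**
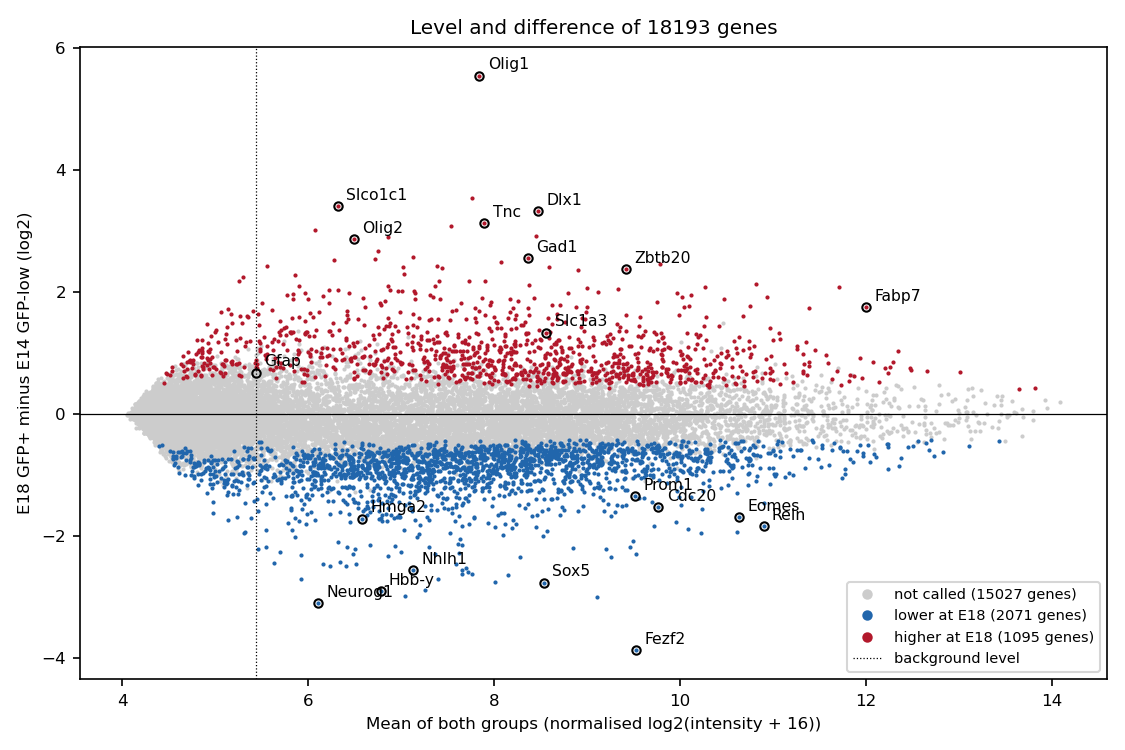
Every gene by its mean level in both groups (x, log2 of intensity + 16) and its difference E18 minus E14 GFP-low (y, log2); red genes were called higher at E18, blue genes lower, grey genes neither, and the dotted line is the background level. Olig1 (5.54) stands highest and Fezf2 (-3.88) lowest.

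The largest rise at E18 was that of Olig1, a bHLH factor of the oligodendrocyte lineage. Olig1 read 10.82, 10.93, 10.38 and 10.32 at E18 and 4.16, 5.74 and 5.31 in E14 GFP-low cells, a difference of 5.54 ± 0.31 (adjusted p = 1.91e-06). Olig2, its partner in specifying oligodendrocyte precursors, read 7.75, 8.56, 7.51 and 7.86 against 4.65, 5.36 and 5.18 (difference 2.86 ± 0.31, adjusted p = 0.000111). The E14 GFP-high arrays held Olig1 at 5.11 to 5.57 and Olig2 at 4.46 to 5.65. Both genes were thus near or below background in every E14 Prominin-selected array and well above it in every E18 array.

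Of 19 measured genes of the oligodendrocyte list, 7 were higher and none lower at E18, against 6.02% higher and 11.4% lower of all genes, with a median difference of 0.46, and 12 were not called. The higher count was 5 with the Gapdh covariate. The others were the proteoglycans Bcan (1.26 ± 0.18 higher, adjusted p = 0.000508) and Ncan, the matrix protein Tnr, the SoxE factor Sox8 (6.25 to 7.15 at E18 against 4.90 to 5.36, adjusted p = 0.00203) and the PDGF receptor Pdgfra. Sox10, the SoxE factor of committed oligodendrocytes, was not called (5.12, 6.29, 4.92 and 5.40 at E18 against 5.80, 4.72 and 4.43, adjusted p = 0.463). Pdgfra, the receptor of oligodendrocyte precursors, was called on 1 of its 3 probe sets (8.29, 8.20, 7.05 and 6.81 against 4.25, 4.29 and 5.16, difference 3.02 ± 0.36, adjusted p = 0.000175). Its other probe sets gave -0.29 and -0.70 (p adjusted over all probe sets = 0.747 and 0.144), and with a pseudocount of 1 in place of 16 another of its probe sets was used and the difference was -1.46 (adjusted p = 0.233). The summed intensity of the list was 4716 to 6035 at E18 and 2062 to 2552 in E14 GFP-low cells.

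Of 33 measured genes of astrocyte maturation, 9 were higher and 2 lower (median 0.40), and 22 were not called. Over all genes, 6.02% were higher and 11.4% lower. Sparcl1, a secreted matricellular protein of astrocytes, read 8.38, 8.39, 8.25 and 8.16 at E18 and 6.17, 6.41 and 6.57 in E14 GFP-low cells (difference 1.91 ± 0.18, adjusted p = 4.35e-05). Id3, an inhibitor of bHLH factors and a BMP target, read 6.54, 6.85, 6.60 and 7.10 against 4.15, 5.22 and 5.29 (difference 1.88 ± 0.27, adjusted p = 0.000565). Neither gene's arrays overlapped between the groups. Mt2, a metallothionein, was 2.28-fold higher (difference 1.19 ± 0.22, adjusted p = 0.00318). The tetraspanin Cd9 was 2.95-fold higher (difference 1.56 ± 0.28, adjusted p = 0.00235), and Apoe, the main lipid carrier of the brain, was 2.67-fold higher (difference 1.42 ± 0.31, adjusted p = 0.00728).

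Several genes used as astrocyte markers were not called or were lower. Gfap, the intermediate filament of mature astrocytes, read 5.95, 5.47, 5.46 and 6.21 at E18 and 5.94, 4.36 and 5.0 in E14 GFP-low cells, overlapping and near background (difference 0.67 ± 0.32, adjusted p = 0.181). Aqp4, the water channel of astrocyte endfeet, was at 5.50 to 5.74 against 4.77 to 5.13 (adjusted p = 0.0248), a call that 12 of 20 alternative analyses lost (adjusted p 0.0135 to 0.321), among them without E18 replicate 4 or 5 and without E14 GFP-low replicate 1 or 2. Aldh1l1, a folate enzyme used as an astrocyte marker, was not called (6.80, 7.01, 6.84 and 7.18 against 5.53, 6.28 and 7.02, adjusted p = 0.214). Gja1, which encodes the gap junction protein connexin 43, was lower: it read 6.58, 7.24, 6.91 and 7.31 at E18 and 8.37, 8.12 and 8.67 in E14 GFP-low cells (difference -1.38 ± 0.21, adjusted p = 0.00102). The FGF receptor gene Fgfr3 was also lower (difference -0.88 ± 0.18, adjusted p = 0.00597). With the Gapdh ratio as a covariate, 4 genes of the list were higher and none lower, and the calls lost included those of Gja1, Fgfr3, Aqp4 and Apoe.

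Among 17 measured factors of the switch to gliogenesis, 6 were higher and 3 lower (median 0.40), against 6.02% and 11.4% of all genes. Zbtb20, a zinc finger repressor with roles in hippocampal patterning and astrocyte production, read 10.38, 10.26, 10.94 and 10.84 at E18 and 8.59, 8.04 and 8.08 in E14 GFP-low cells (difference 2.37 ± 0.20, adjusted p = 2.24e-05), or 5.17-fold higher. All 9 probe sets of Zbtb20 were called higher. Id1, a relative of Id3, read 7.55, 7.36, 7.10 and 7.02 against 6.37, 5.72 and 4.64 (difference 1.68 ± 0.42, adjusted p = 0.0158), a call lost in 4 of 21 alternatives, among them without E14 GFP-low replicate 3 (adjusted p 0.0033 to 0.127). Hey1, a bHLH repressor downstream of Notch, was 3.62-fold lower (difference -1.85 ± 0.23, adjusted p = 0.000268). Nfia, a nuclear factor that starts gliogenesis, read 10.55, 10.18, 10.48 and 10.33 at E18 against 11.29, 10.96 and 11.13 (difference -0.75 ± 0.15, adjusted p = 0.00529). Its 6 probe sets differed: 2 were called lower and the rest, between -0.94 and 0.71, were not called. Nfib, its close relative, was abundant in both groups at 12.31 to 12.63 and 12.58 to 12.78 and was not called on its brightest probe set (adjusted p = 0.488). Of its 7 probe sets, 1 was called higher (0.997, adjusted p = 0.00419) and 1 lower (-0.58, adjusted p = 0.0201). Sox9, the SoxE factor that opens the glial programme, read 6.47, 6.85, 6.30 and 6.36 against 7.17, 7.00 and 7.18 (difference -0.62 ± 0.18, adjusted p = 0.0293), and that call was lost in 14 of 21 alternatives, among them without each of the 7 arrays in turn except E18 replicate 3 (adjusted p 0.0127 to 0.819).

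Genes of the radial glial list moved both ways: of 28 measured, 6 were higher and 12 lower at E18 (median -0.54). The shares over all genes were 6.02% and 11.4%. The transcript of the sorting antigen itself was lower. Prom1 read 8.69, 8.84, 8.74 and 9.08 at E18, 10.25, 10.10 and 10.22 in E14 GFP-low cells and 10.91, 10.81, 10.97 and 11.02 in E14 GFP-high cells, with no overlap between any of the groups (E18 minus E14 GFP-low -1.35 ± 0.14, adjusted p = 9.22e-05, or 2.55-fold lower). Its level stayed above background on every array.

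The radial glial genes that rose included several of the best known. Fabp7, the brain lipid binding protein of radial glia, read 12.88, 12.53, 12.98 and 13.10 at E18 and 10.96, 11.03 and 11.38 in E14 GFP-low cells (difference 1.75 ± 0.19, adjusted p = 9.26e-05). Slc1a3, the glutamate transporter GLAST, read 8.79, 9.10, 9.31 and 9.71 against 8.02, 7.49 and 8.19 (difference 1.33 ± 0.27, adjusted p = 0.00494). Tnc, the matrix glycoprotein tenascin C, which outer radial glia and astrocyte precursors secrete, read 9.48, 9.22, 9.57 and 9.55 against 6.12, 6.21 and 6.65 (difference 3.13 ± 0.23, adjusted p = 7.65e-06). The E18 arrays were above all E14 GFP-low arrays for each of these genes, and 5 of the 6 probe sets of Slc1a3 were called higher. Ptprz1, a receptor phosphatase that binds tenascins, was 3.4-fold higher (difference 1.77 ± 0.18, adjusted p = 6.28e-05).

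Other regulators of radial glial identity fell. The SoxB1 factor Sox3 read 5.78, 5.96, 6.22 and 6.29 at E18 and 7.82, 7.71 and 7.64 in E14 GFP-low cells (difference -1.66 ± 0.18, adjusted p = 9.07e-05). The orphan nuclear receptor Nr2e1, which keeps neural stem cells undifferentiated, read 6.01, 6.24, 5.76 and 6.04 against 7.51, 7.41 and 8.06 (difference -1.65 ± 0.19, adjusted p = 0.000131). Vim, the intermediate filament vimentin, was 2-fold lower (difference -1.0 ± 0.22, adjusted p = 0.00876). The first pair showed no overlap and the Vim call was lost with the Gapdh covariate. The other probe set of Sox3 read -0.054 and was not called. Sox2, the relative of Sox3, was not called (9.86, 9.84, 10.03 and 9.87 against 9.67, 9.31 and 9.64, adjusted p = 0.218), nor was the Notch effector Hes5 (6.11, 6.84, 6.17 and 6.66 against 6.61, 7.15 and 7.89, adjusted p = 0.187).

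For Pax6, the paired box factor of cortical radial glia, the direction depended on the probe set. The brightest read 8.04, 8.14, 8.25 and 8.39 at E18 and 8.88, 9.08 and 9.12 in E14 GFP-low cells (difference -0.82 ± 0.18, adjusted p = 0.00904). A second was called higher (1.14, adjusted p = 0.0226), 3 others were not called, and the mean of all 5 gave 0.062 (adjusted p = 0.861). Aldoc, the brain aldolase of radial glia and astrocytes, read 9.75, 10.23, 10.62 and 10.22 at E18 and 10.57, 11.03 and 10.92 in E14 GFP-low cells, overlapping (difference -0.64 ± 0.20, adjusted p = 0.043), a call that 13 of 21 alternatives lost, among them without E18 replicate 2, 3 or 5 and without E14 GFP-low replicate 2 or 3 (adjusted p 0.00881 to 0.189). The summed intensity of the radial glial list overlapped between the groups (22097 to 26638 at E18 and 22175 to 25133 in E14 GFP-low cells). With the Gapdh ratio as a covariate 5 of its genes were higher and 5 lower, and without E18 replicate 3 and E14 GFP-low replicate 2 together 4 were higher and 7 lower. Without E18 replicate 2 alone, or E14 GFP-low replicate 3 alone, 7 were lower.

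**Figure D3:**
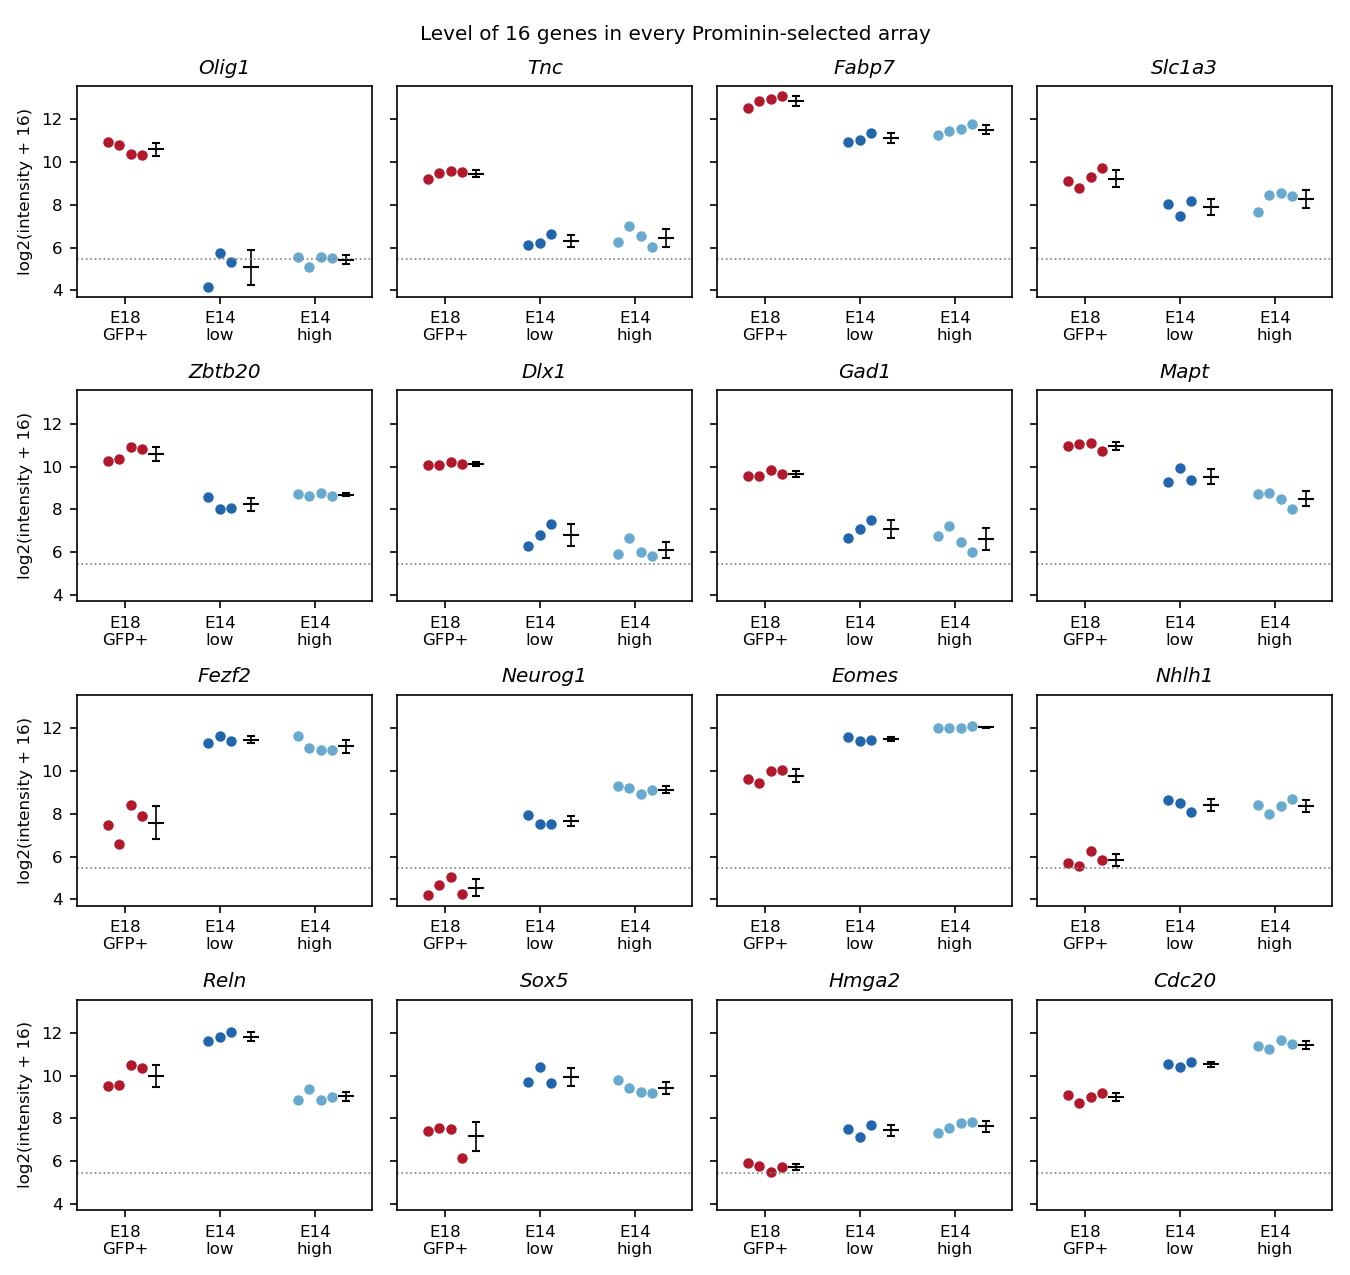
Level (log2 of intensity + 16) of 16 genes in each Prominin-selected array: E18 GFP-positive (red, n = 4), E14 GFP-low (dark blue, n = 3) and E14 GFP-high (light blue, n = 4); the black mark and bar are the mean and SD, and the dotted line is the background level. In each panel the E18 points lie apart from the E14 GFP-low points, above them for the genes from Olig1 to Mapt and below them for those from Fezf2 to Cdc20.

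The largest fall at E18 was that of Fezf2, the zinc finger factor that specifies subcerebral projection neurons and marks early cortical progenitors. Fezf2 read 6.57, 7.47, 8.42 and 7.89 at E18 and 11.34, 11.65 and 11.41 in E14 GFP-low cells (difference -3.88 ± 0.34, adjusted p = 2.81e-05, or 14.7-fold). Its E14 GFP-high level was 10.99 to 11.63. Hmga2, a chromatin protein of young stem cells, read 5.77, 5.89, 5.51 and 5.70 at E18 and 7.49, 7.14 and 7.67 in E14 GFP-low cells (difference -1.72 ± 0.19, adjusted p = 9.61e-05). Every E18 array was below every E14 array for both genes.

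Of 16 measured genes of the early temporal list, 8 were lower and 1, Nr2f1, was higher (median -0.50), against 11.4% and 6.02% of all genes. With the Gapdh covariate 5 were lower. The mRNA-binding proteins Igf2bp1 and Igf2bp3 were 2.7-fold and 2.1-fold lower (differences -1.43 ± 0.22 and -1.07 ± 0.15, adjusted p = 0.000904 and 0.000429). The doublesex-related factor Dmrt3, a gene of early dorsal and medial cortex, read 5.28, 4.94, 5.62 and 5.50 at E18 and 7.30, 7.60 and 8.01 in E14 GFP-low cells (difference -2.30 ± 0.21, adjusted p = 3.16e-05). Lin28b, the RNA-binding protein that blocks let-7 maturation, lay below background in both groups (4.15 to 4.71 and 4.07 to 4.77) and was not called (difference 0.10 ± 0.26, adjusted p = 0.848). Nr2f1, the orphan receptor COUP-TF1 of cortical area patterning, was 1.93-fold higher (11.34 to 11.61 against 10.28 to 10.75, adjusted p = 0.00855), though not under median centring.

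Of 23 measured genes of basal progenitors and proneural commitment, 14 were lower and 2 higher at E18, against 11.4% and 6.02% of all genes. In this list 7 were not called and the median difference was -1.10. Neurog1, a proneural bHLH factor, read 4.68, 4.21, 5.05 and 4.26 at E18, all below background, and 7.93, 7.51 and 7.53 in E14 GFP-low cells (difference -3.11 ± 0.21, adjusted p = 7.21e-06). Neurog2, the main proneural factor of the cortex, read 8.80, 8.79, 9.40 and 9.57 against 11.22, 10.79 and 11.07 (difference -1.89 ± 0.25, adjusted p = 0.000391, or 3.7-fold). Eomes, the T-box factor Tbr2 that defines basal progenitors, read 9.43, 9.61, 10.03 and 10.07 against 11.59, 11.42 and 11.44 (difference -1.70 ± 0.17, adjusted p = 6.76e-05, or 3.25-fold). These arrays did not overlap, and Neurog2 and Eomes remained well above background at E18 whereas Neurog1 did not. The other probe set of Neurog1 read -0.67 and was not called.

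Nhlh1, a bHLH factor of newborn neurons, read 5.58, 5.68, 6.25 and 5.85 at E18 and 8.64, 8.5 and 8.09 in E14 GFP-low cells (difference -2.57 ± 0.22, adjusted p = 2.20e-05), and its relative Nhlh2 read 5.23, 5.65, 6.16 and 6.22 against 8.70, 8.48 and 8.92 (difference -2.88 ± 0.27, adjusted p = 3.38e-05). Mfng, the glycosyltransferase manic fringe, was 3.18-fold lower and the microfibril protein gene Mfap4 4.82-fold lower (adjusted p = 0.000343 and 0.00088). Btg2, which marks neurogenic divisions, was not called (8.84, 9.02, 9.26 and 8.71 against 9.32, 9.40 and 9.31, adjusted p = 0.119). In the E14 GFP-high cells Neurog1 was at 8.91 to 9.31, above the GFP-low arrays, while Nhlh1 was at 7.99 to 8.71. The lower count of the list was 13 with the Gapdh covariate and 14 without E18 replicate 3 and E14 GFP-low replicate 2.

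Of 24 measured layer fate genes, 6 were higher and 9 lower (median -0.33), against 6.02% and 11.4% of all genes. Besides Fezf2, the genes that fell included other factors of deep-layer neurons. Sox5, which orders the birth of corticofugal neurons, read 7.57, 7.41, 7.49 and 6.14 at E18 and 9.72, 10.40 and 9.64 in E14 GFP-low cells (difference -2.77 ± 0.32, adjusted p = 0.000168), and all 7 of its probe sets were called lower. Bcl11b, known as Ctip2, a factor of layer 5 neurons, read 10.16, 9.78, 10.41 and 10.33 against 11.76, 11.45 and 11.69 (difference -1.46 ± 0.20, adjusted p = 0.000437). The corepressor Tle4 of layer 6 neurons was 2.31-fold lower and the T-box factor Tbr1 2.27-fold lower (adjusted p = 0.000196 and 0.00618). E18 replicate 5 was the lowest for Sox5.

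The genes that rose included factors of upper-layer neurons and 3 POU factors, Pou3f1, Pou3f2 and Pou3f3. Pou3f2, also called Brn2, a POU factor of upper-layer neurons and late progenitors, read 9.56, 9.70, 8.89 and 9.58 at E18 and 7.60, 7.36 and 6.97 in E14 GFP-low cells (difference 2.12 ± 0.25, adjusted p = 0.000196). Cux2, the homeobox factor of upper-layer neurons and their progenitors, read 11.03, 11.05, 10.78 and 11.06 against 9.33, 9.15 and 9.13 (difference 1.77 ± 0.16, adjusted p = 3.27e-05). Mef2c was 2.55-fold higher on a probe set whose 4 companions were also called higher (adjusted p = 0.00107), and Lmo4 was 2.77-fold higher (adjusted p = 0.00214). With the Gapdh covariate 5 genes of the list were higher and 5 lower.

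Of 28 measured genes of postmitotic neurons, 14 were higher and 2 lower at E18 (median 0.54), against 6.02% and 11.4% of all genes. Stmn4, a tubulin-binding stathmin of neurons, read 11.30, 11.13, 10.93 and 10.68 at E18 and 8.61, 8.84 and 8.21 in E14 GFP-low cells (difference 2.46 ± 0.23, adjusted p = 3.99e-05). Mapt, the axonal microtubule protein tau, read 11.08, 10.99, 11.11 and 10.72 against 9.30, 9.92 and 9.38 (difference 1.44 ± 0.21, adjusted p = 0.000776). Tubb3, neuronal class III tubulin, read 11.92, 11.89, 12.02 and 11.42 against 10.70, 11.13 and 10.68 (difference 0.98 ± 0.19, adjusted p = 0.004). No E18 array overlapped the E14 GFP-low arrays for these genes. The vesicle protein gene Syt4 was 3.86-fold higher and the adaptor gene Sla 3.07-fold higher (adjusted p = 0.00183 and 0.00201).

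Other neuronal markers passed less firmly or not at all. Stmn2 was not called (12.58, 12.04, 12.10 and 11.97 against 11.34, 11.83 and 11.44, adjusted p = 0.0625). Snap25, a vesicle fusion protein, was 1.68-fold higher (adjusted p = 0.0174), and its call was lost in 5 of 21 alternatives, among them without E14 GFP-low replicate 2 or 3 (adjusted p 0.00382 to 0.183). Map2, the dendritic microtubule protein, was 1.62-fold higher (adjusted p = 0.0475), a call lost in 14 of 21 alternatives, among them without any 1 of the 7 arrays (adjusted p 0.00937 to 0.406), and its probe sets were called in both directions. The E14 GFP-high arrays read 7.30 to 8.17 for Stmn4, 8.04 to 8.76 for Mapt and 10.25 to 10.68 for Tubb3. The summed intensity of the neuron list was 68138 to 75338 at E18 and 53555 to 60815 in E14 GFP-low cells, and how far neurons in either sort account for other differences was not tested. The higher count fell to 5 under median centring, 8 with the Gapdh covariate and 9 without E18 replicate 3 and E14 GFP-low replicate 2.

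Genes of Cajal-Retzius cells, the early-born Reelin-secreting neurons of the marginal zone, were lower at E18. Of 16 measured, 9 fell and 1, Cxcr4, rose (median -1.24), against 11.4% and 6.02% of all genes. Reln, which encodes Reelin, read 9.57, 9.5, 10.48 and 10.36 at E18, 11.62, 11.81 and 12.03 in E14 GFP-low cells and 8.88, 9.36, 8.88 and 8.98 in E14 GFP-high cells (E18 minus E14 GFP-low -1.84 ± 0.25, adjusted p = 0.000471, or 3.58-fold lower). The E18 level of Reln thus lay between the 2 E14 gates. One of its 2 probe sets was called. Lhx1, a LIM homeobox factor of these neurons, read 5.08, 4.69, 5.03 and 4.73 at E18, below background, and 6.21, 6.91 and 6.90 in E14 GFP-low cells (difference -1.79 ± 0.27, adjusted p = 0.000906). Trp73, the p53 relative that marks them, read 5.30, 5.42, 5.73 and 4.42 against 6.45, 6.79 and 6.85 (difference -1.48 ± 0.26, adjusted p = 0.00228).

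Ebf2, Ebf3 and Lhx5, further factors of Cajal-Retzius cells, had differences of -1.90 ± 0.27, -1.64 ± 0.19 and -1.29 ± 0.23 (adjusted p = 0.000642, 0.000162 and 0.00224). Cacna2d2, a calcium channel subunit, was lower too (difference -2.47 ± 0.32, adjusted p = 0.000328). Its other probe sets read -0.21 and -0.48 and were not called. In the E14 GFP-high arrays Lhx1 was at 4.13 to 5.18 and Trp73 at 5.12 to 5.50, near or below background as at E18. Cxcr4, the receptor of the chemokine Cxcl12, was 2.03-fold higher (adjusted p = 0.0278), and its call was lost in 9 of 21 alternatives, among them without E18 replicate 4 or 5 and without any 1 of the E14 GFP-low arrays (adjusted p 0.0102 to 0.121). The summed intensity of the list was 1644 to 2442 at E18 and 5352 to 6801 in E14 GFP-low cells, and the share of the other differences that these cells account for was not tested.

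Genes of the ventral forebrain and of GABAergic interneurons were higher at E18. Of 20 measured, 12 rose and none fell, against 6.02% and 11.4% of all genes. The median difference of 1.11 was the highest of the 35 lists. Dlx1, a homeobox factor of the ganglionic eminences and migrating interneurons, read 10.09, 10.06, 10.24 and 10.14 at E18 and 6.30, 6.82 and 7.31 in E14 GFP-low cells (difference 3.33 ± 0.25, adjusted p = 8.14e-06). Its neighbour Dlx2 read 8.84, 8.57, 8.62 and 8.53 against 6.24, 5.99 and 6.51 (difference 2.39 ± 0.26, adjusted p = 9.61e-05, or 5.26-fold). Gad1, which makes GABA from glutamate, read 9.54, 9.54, 9.84 and 9.64 against 6.65, 7.10 and 7.51 (difference 2.55 ± 0.26, adjusted p = 7.83e-05, or 5.85-fold). The E18 arrays lay close together for each of these genes and at least 2 log2 units above every E14 GFP-low array. The E14 GFP-high arrays read 5.82 to 6.67 for Dlx1 and 6.02 to 7.21 for Gad1.

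Lhx6, the LIM factor of interneurons from the medial ganglionic eminence, read 8.37, 8.31, 8.85 and 8.69 at E18 and 6.61, 6.64 and 6.95 in E14 GFP-low cells (difference 1.82 ± 0.17, adjusted p = 3.85e-05). The other probe set of Lhx6 read 0.010 and was not called. Maf, which acts in the same lineage, was 4.5-fold higher (adjusted p = 0.000161). Gsx2, a progenitor factor of the lateral ganglionic eminence, read 5.76, 6.25, 5.98 and 5.97 against 4.38, 4.27 and 4.43 (difference 1.63 ± 0.21, adjusted p = 0.000362). Sp8, a zinc finger factor of both cortical progenitors and caudal interneurons, rose by 1.82 ± 0.22 (adjusted p = 0.000187). The second GABA-synthesising enzyme, Gad2, was 2.48-fold higher (adjusted p = 0.00074). Summed intensity over the list was 6570 to 7004 at E18 and 2980 to 3359 in E14 GFP-low cells, and how far migrating interneurons in the sort account for the other differences was not tested. The number of its genes called higher was 11 with the Gapdh covariate, 10 without E18 replicate 3 and E14 GFP-low replicate 2, and 11 to 12 when each of the 7 arrays was left out in turn.

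Of 17 measured pallial patterning genes, which mark dorsal forebrain, 9 fell and 2, Sp8 and Nr2f1, rose (median -0.82), and 6 were lower with the Gapdh covariate. Over all genes, 11.4% fell and 6.02% rose. Emx1, the homeobox factor of the cortical lineage, read 6.58, 8.05, 6.39 and 8.03 at E18 and 8.85, 9.19 and 9.35 in E14 GFP-low cells (difference -1.87 ± 0.38, adjusted p = 0.00513). Lhx9, a LIM factor of the medial and early pallium, read 4.09, 5.12, 5.97 and 5.35 against 7.60, 7.40 and 7.69 (difference -2.43 ± 0.36, adjusted p = 0.000723). The groups did not overlap for either gene, and the Emx1 call was lost with the Gapdh covariate. Otx1 was 2.68-fold lower, Gli3 2.52-fold lower, and Lef1 and Dmrta1 fell to levels below background (differences -1.74 ± 0.19 and -1.65 ± 0.21; adjusted p = 0.000552, 0.000628, 9.61e-05 and 0.000301).

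**Figure D4:**
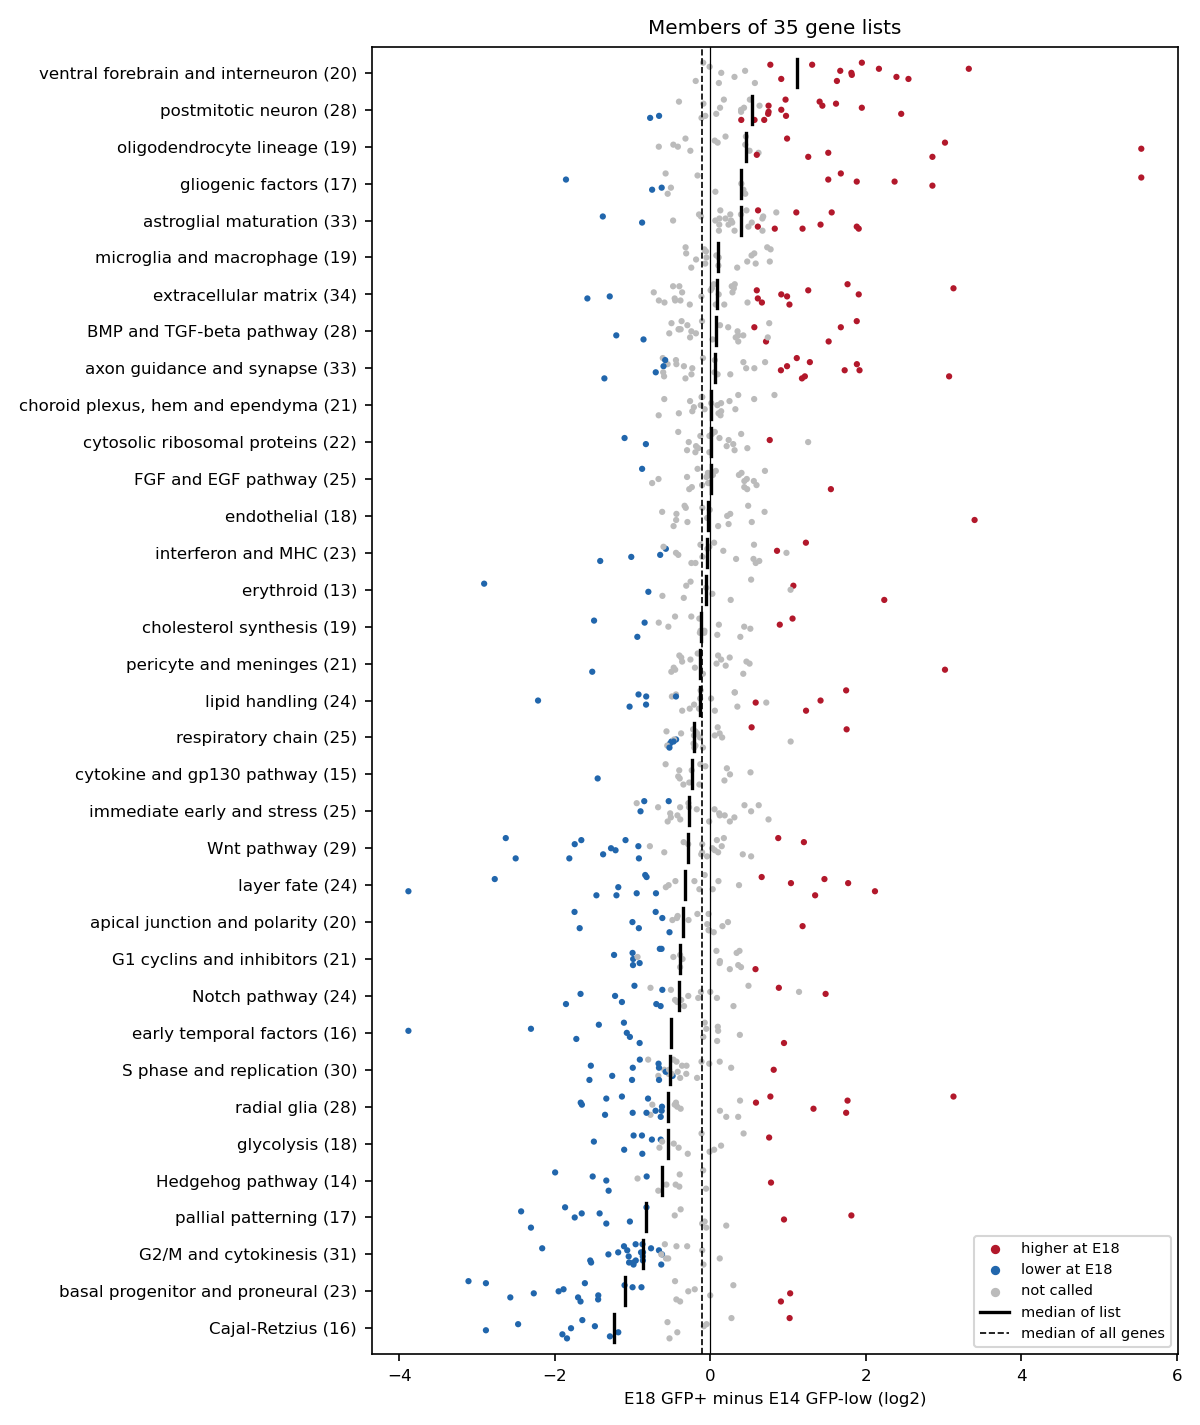
Difference E18 minus E14 GFP-low (x, log2) of every measured member of 35 gene lists, ordered by the list's median (black bar), with the number measured in brackets; red members were called higher at E18, blue lower and grey neither, and the dashed line is the median of all genes (-0.10). Interneuron (1.11) and postmitotic neuron (0.54) lists stand at the top and the Cajal-Retzius (-1.24), proneural (-1.10) and G2/M (-0.87) lists at the bottom.

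Many cell cycle genes were lower at E18. Of 31 measured genes of G2, mitosis and cytokinesis, 22 fell and none rose (median -0.87), against 11.4% and 6.02% of all genes. Cdc20, the activator of the anaphase-promoting complex, read 8.72, 9.08, 9.01 and 9.19 at E18 and 10.55, 10.40 and 10.65 in E14 GFP-low cells (difference -1.53 ± 0.16, adjusted p = 9.07e-05, or 2.89-fold). Ccnb2, a mitotic cyclin, read 7.24, 7.63, 7.60 and 7.56 against 8.68, 8.77 and 8.99 (difference -1.31 ± 0.15, adjusted p = 0.000184). Bub1b, the spindle checkpoint kinase BubR1, read 6.36, 6.92, 6.73 and 6.73 against 7.97, 8.35 and 8.35 (difference -1.54 ± 0.17, adjusted p = 0.000129). In all of these genes the E18 arrays lay below the E14 GFP-low arrays, and those below the GFP-high arrays (11.23 to 11.65 for Cdc20, 9.56 to 9.87 for Ccnb2, 9.05 to 9.36 for Bub1b).

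Cdc25c, the phosphatase that triggers mitotic entry, was 4.47-fold lower (adjusted p = 9.27e-05), and the spindle genes Tpx2 and Cenpe were 2.16-fold and 2.09-fold lower (adjusted p = 0.000478 and 0.00223). The proliferation marker Mki67 was 1.69-fold lower (adjusted p = 0.0241), a call lost in 8 of 21 alternatives, among them without E18 replicate 2 or 4 and without E14 GFP-low replicate 2 or 3 (adjusted p 0.00487 to 0.181). Top2a, the topoisomerase of dividing cells, was 1.82-fold lower on 1 of its 3 probe sets (adjusted p = 0.0117). That call was lost in 4 alternatives, among them without E14 GFP-low replicate 2 and with the mean of probe sets. The other Top2a probe sets read -0.035 and 0.31 and were not called. The count of lower genes in the list was 9 with the Gapdh covariate, 14 with quantile normalisation over the gene table alone, 11 without E18 replicate 3 and E14 GFP-low replicate 2, and 14 to 20 with each array left out in turn, lowest without E14 GFP-low replicate 3.

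Promoters of mitotic genes are known for CCAAT boxes, bound by NF-Y, and for a cell cycle homology element read as TTTGAA, bound by the DREAM and MuvB complexes. The 250 bases before the start of 3 genes called lower (Ccnb2, Cdc20 and, on 1 of its probe sets, Top2a) and of Cdk1, a gene of the same list that was not called, show how these letters are arranged in genes of the list. The sequences are from RefSeq (GRCm38.p6), all genes lie on the minus strand, the sequence ends at the base before the start, and capitals mark CCAAT or TTTGAA on either strand, which overlap nowhere.
Ccnb2, chr9:70421555-70421804: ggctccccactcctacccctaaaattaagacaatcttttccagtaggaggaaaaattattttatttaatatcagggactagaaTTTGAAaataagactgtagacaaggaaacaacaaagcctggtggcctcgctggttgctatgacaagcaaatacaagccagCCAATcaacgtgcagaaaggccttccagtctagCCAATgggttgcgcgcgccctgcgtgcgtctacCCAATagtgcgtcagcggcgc
Cdc20, chr4:118437344-118437593: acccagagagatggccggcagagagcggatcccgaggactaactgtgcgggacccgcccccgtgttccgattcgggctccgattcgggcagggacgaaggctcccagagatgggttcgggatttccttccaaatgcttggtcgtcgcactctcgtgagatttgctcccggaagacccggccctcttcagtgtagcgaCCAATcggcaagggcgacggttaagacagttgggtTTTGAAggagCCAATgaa
Top2a, chr11:99024190-99024439: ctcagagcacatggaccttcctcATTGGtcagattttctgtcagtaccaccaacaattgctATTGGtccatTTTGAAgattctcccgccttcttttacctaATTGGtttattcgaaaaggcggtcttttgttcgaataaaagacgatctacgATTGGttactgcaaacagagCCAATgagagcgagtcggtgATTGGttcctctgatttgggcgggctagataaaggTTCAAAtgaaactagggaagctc
Cdk1, chr10:69352913-69353162: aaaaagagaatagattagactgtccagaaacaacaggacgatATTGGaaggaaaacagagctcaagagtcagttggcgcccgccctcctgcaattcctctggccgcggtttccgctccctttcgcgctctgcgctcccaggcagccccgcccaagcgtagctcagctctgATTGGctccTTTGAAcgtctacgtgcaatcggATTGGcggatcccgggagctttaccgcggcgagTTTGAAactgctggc

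Ccnb2 held 3 CCAAT boxes, at bases 164, 197 and 230 of the printed run, all in the same orientation. Cdc20 held 2, Top2a 6 and Cdk1 3, and each promoter held TTTGAA at least once. Of the 22 lower genes of the list, 20 were matched to the promoter table, and 16 of them (80.0%) held a CCAAT box within 250 bases, against 37.5% of the 27025 genes of the table. TTTGAA was present in 7, against 18.3% of all genes. Of the 9 genes that were not called, 6 were matched, and 5 of those held a CCAAT box and 2 TTTGAA. These are matches of letters and not bound sites.

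Replication genes fell in smaller number: of 30 S phase genes, 11 were lower and 1 higher (median -0.51). The shares over all genes were 11.4% and 6.02%. Ccne1, the cyclin of replication onset, read 6.10, 5.92, 6.20 and 6.10 at E18 and 7.40, 7.74 and 7.77 in E14 GFP-low cells (difference -1.55 ± 0.16, adjusted p = 7.15e-05). Mcm3, a subunit of the replicative helicase, read 6.81, 6.71, 7.06 and 6.70 against 8.00, 8.45 and 8.61 (difference -1.53 ± 0.23, adjusted p = 0.000888). The exception was Pcna, the sliding clamp, which read 11.79, 11.75, 11.77 and 11.65 against 10.81, 10.94 and 11.03 and was higher (difference 0.82 ± 0.15, adjusted p = 0.00275), though not called under median centring. In the fit with the Gapdh covariate, 4 genes of the list were lower, and without E14 GFP-low replicate 3 the number was 7. Of 21 genes of G1 cyclins and Cdk inhibitors 7 were lower and 1 higher (median -0.39), and with the covariate 2 were lower. Among them were Cdk4 (1.99-fold lower, adjusted p = 0.00325) and Ccnd1 (1.88-fold lower, adjusted p = 0.00458). The Cdk inhibitor genes Cdkn1c and Cdkn1a were also lower (differences -0.998 and -0.990, p adjusted over all probe sets = 0.0106 and 0.0121). The calls of both inhibitor genes were lost with the Gapdh covariate.

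More genes of the Wnt pathway fell than rose, as was so over all genes. Of 29 measured, 11 fell and 2 rose (median -0.28), against 11.4% and 6.02% of all genes. The lower count was also 11 with the Gapdh covariate. Among receptors, Fzd2 read 7.67, 7.83, 7.87 and 8.14 at E18 and 9.66, 9.32 and 9.62 in E14 GFP-low cells (difference -1.66 ± 0.16, adjusted p = 3.84e-05), and Fzd8 was 2.32-fold lower (adjusted p = 0.000322). Nkd1, a feedback inhibitor that Wnt signals induce, read 6.26, 6.12, 6.29 and 6.68 against 8.96, 8.93 and 9.01 (difference -2.63 ± 0.16, adjusted p = 3.79e-06). Apcdd1, another induced inhibitor, was 3.51-fold lower on a probe set that 4 of its 5 companions matched in direction and call (adjusted p = 0.000736). The nuclear effector Tcf7l1 read 4.65, 5.98, 4.67 and 4.62 against 7.00, 7.59 and 7.85 (difference -2.50 ± 0.32, adjusted p = 0.000292), with E18 replicate 3 above the other E18 arrays. The ligand gene Wnt7b was 2.6-fold lower and the secreted modulator Sfrp1 2.42-fold lower (adjusted p = 0.00447 and 0.000144).

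In the Notch list 8 of 24 genes were lower and 2 higher (median -0.40), against 11.4% and 6.02% of all genes. The receptor Notch1 read 8.34, 8.55, 8.68 and 8.63 at E18 and 9.5, 9.65 and 9.90 in E14 GFP-low cells (difference -1.13 ± 0.15, adjusted p = 0.000454), and Notch3 was 2.33-fold lower (adjusted p = 0.00044). Notch2 was 1.84-fold higher with overlapping arrays (adjusted p = 0.0352), and that call was lost in 12 of 21 alternatives, among them without E18 replicate 2, 4 or 5 and without E14 GFP-low replicate 1 or 2 (adjusted p 0.00545 to 0.741). Dtx4, a ubiquitin ligase of the pathway, read 9.04, 9.20, 8.51 and 8.33 against 6.96, 7.34 and 7.55 (difference 1.48 ± 0.23, adjusted p = 0.00108) and was higher. The other probe set of Dtx4 read 0.058 and was not called. With the Gapdh covariate 4 genes of the list were lower and 1 higher.

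Hedgehog pathway genes fell in 5 of 14 cases and 1 rose (median -0.62), against 11.4% and 6.02% of all genes. Gli2, the main activator of the pathway, read 7.30, 7.24, 6.86 and 6.97 at E18 and 9.34, 8.83 and 9.09 in E14 GFP-low cells (difference -1.99 ± 0.17, adjusted p = 2.20e-05). The co-receptors Cdon and Boc were 2.85-fold and 2.47-fold lower (adjusted p = 9.61e-05 and 0.000385). Ptch1, the receptor and a target of the pathway, read 8.35, 8.59, 8.01 and 8.34 against 7.47, 7.61 and 7.54 and was higher (difference 0.78 ± 0.15, adjusted p = 0.00452). Thus the transcript of the activator was lower while that of a known target was higher, each without overlap, although the mean of the 3 Ptch1 probe sets lost its call.

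In the FGF and EGF list, 1 of 25 genes was higher and 1 lower, below the all-gene shares of 6.02% and 11.4%. With the Gapdh covariate 3 were higher and none lower. Spry2, a feedback inhibitor of FGF signalling, was 2.93-fold higher (8.71 to 9.59 at E18 against 7.17 to 7.72, adjusted p = 0.00103), and Fgfr3 was lower as given above. In the BMP and TGF-beta list 5 of 28 were higher and 2 lower, but 1 was higher and none lower with the Gapdh covariate, and 2 were higher without E14 GFP-low replicate 2 and 3 without E14 GFP-low replicate 3 or E18 replicate 4. Of 15 genes of the cytokine and gp130 list only the CNTF receptor gene Cntfr was called, 2.73-fold lower (adjusted p = 0.000456). That list too was below the shares over all genes.

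Of 20 apical junction and polarity genes 7 were lower and 1 higher (median -0.35), against 11.4% and 6.02% of all genes. Celsr1, a planar polarity cadherin, read 6.55, 7.33, 7.85 and 7.58 at E18 and 8.99, 9.33 and 8.89 in E14 GFP-low cells (difference -1.74 ± 0.26, adjusted p = 0.000742). Ctnna1, which encodes alpha-E-catenin of the adherens junction, was 2-fold lower (adjusted p = 0.000946) and the claudin gene Cldn12 3.2-fold lower (adjusted p = 0.000144). Cdh2, N-cadherin of the same junction, was higher: it read 11.38, 11.19, 11.39 and 11.37 against 10.46, 9.99 and 9.98 (difference 1.19 ± 0.24, adjusted p = 0.00554). In the fit with the Gapdh covariate, 4 genes of the list were lower, as many as without E14 GFP-low replicate 2 or 3.

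Of 34 extracellular matrix genes 10 were higher and 2 lower (median 0.09), against 6.02% and 11.4% of all genes. Those that rose were mostly proteoglycans, tenascins and matricellular proteins of the brain: Tnc, Ptprz1, Sparcl1, Bcan, Tnr and Ncan belong to them. Gpc4, a glypican, and Lamb1, a laminin chain, were 2.99-fold and 2.45-fold lower (adjusted p = 0.000266 and 0.000554). With the Gapdh covariate 4 genes of the list were higher and 2 lower, and without E14 GFP-low replicate 3 the number higher was 6.

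Genes of axon guidance and synapses were higher in 10 of 33 cases and lower in 4 (median 0.06). With the Gapdh covariate the counts were 9 and 1. The shares over all genes were 6.02% and 11.4%. Gabra2, a subunit of the GABA-A receptor, read 8.93, 9.18, 9.12 and 9.05 at E18 and 6.32, 5.69 and 5.98 in E14 GFP-low cells (difference 3.07 ± 0.16, adjusted p = 1.68e-06). Gria2, a subunit of the AMPA receptor, read 12.51, 12.17, 12.33 and 12.01 against 10.58, 10.83 and 10.16 (difference 1.73 ± 0.18, adjusted p = 8.71e-05), and Grin2b, of the NMDA receptor, was 3.7-fold higher (adjusted p = 0.00229). All 3 probe sets of Gria2 were called higher, against 1 of 4 for Grin2b and 3 of 5 for Gabra2. The guidance genes Sema3c, Robo2 and Slit2 were 3.78-fold, 2.33-fold and 1.98-fold higher (adjusted p = 3.13e-05, 0.00044 and 0.00169). Dcc, the netrin receptor, was lower: it read 9.26, 8.81, 9.45 and 9.70 at E18 and 10.90, 10.53 and 10.57 in E14 GFP-low cells (difference -1.36 ± 0.25, adjusted p = 0.00326).

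Glycolytic genes were lower in 7 of 18 cases and 1 was higher (median -0.54), against 11.4% and 6.02% of all genes. Ldha, lactate dehydrogenase A, read 10.23, 10.28, 10.26 and 10.29 at E18 and 11.38, 11.40 and 11.34 in E14 GFP-low cells (difference -1.11 ± 0.15, adjusted p = 0.000484). Hk2, a hexokinase, read 5.69, 6.37, 6.37 and 6.75 against 7.77, 7.84 and 7.76 (difference -1.5 ± 0.22, adjusted p = 0.000856), and Pgk1 was 1.83-fold lower on its brightest probe set, with all 3 probe sets called lower (adjusted p = 0.00189). The platelet-type phosphofructokinase Pfkp was 1.69-fold higher (adjusted p = 0.00218). In the fit with the Gapdh covariate, 5 genes of the list were lower.

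In lipid handling, 4 of 24 genes were higher and 6 lower, against 6.02% and 11.4% of all genes (3 and 4 genes with the Gapdh covariate). Lpl, lipoprotein lipase, read 8.45, 8.37, 7.91 and 7.68 at E18, 10.36, 10.11 and 10.48 in E14 GFP-low cells and 8.67, 9.01, 8.81 and 8.59 in E14 GFP-high cells (E18 minus E14 GFP-low -2.21 ± 0.21, adjusted p = 3.63e-05, or 4.64-fold lower). Abca1, a cholesterol exporter, was 2.35-fold higher (adjusted p = 0.000512). In cholesterol synthesis 2 of 19 genes were higher and 3 lower, against the same shares over all genes (0 and 1 with the Gapdh covariate). The lowest p was that of lanosterol synthase Lss (2.81-fold lower, adjusted p = 0.000412). When quantiles were set over the 7 arrays alone, another probe set of Lss was used and read 0.36 (adjusted p = 0.167).

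Housekeeping lists moved little. Of 25 respiratory chain genes 2 were higher and 5 lower, of 22 cytosolic ribosomal protein genes 1 and 2, of 23 interferon and MHC genes 2 and 4, and of 25 immediate early and stress genes 0 and 3. These shares are near or below the shares over all genes (6.02% and 11.4%), apart from the lower counts of the respiratory chain and the interferon list, which fell when single arrays were left out. Without E18 replicate 4 or without E14 GFP-low replicate 2, 1 respiratory chain gene was lower, and 1 interferon gene was lower without E18 replicate 2 or 4 or without E14 GFP-low replicate 2 or 3. With the Gapdh covariate 3 respiratory chain genes were higher and 1 lower. Ndufs4, a subunit of complex I, was 3.37-fold higher on its brightest probe set (9.76 to 9.98 at E18 against 7.49 to 8.45, adjusted p = 0.000894). Of its 4 probe sets 2 were called higher, and the others read -0.036 and -0.10 and were not called. The interferon-induced membrane protein gene Ifitm2 was 2.66-fold lower (adjusted p = 0.000356) and the class I MHC gene H2-D1 2.35-fold higher (adjusted p = 0.00354), but H2-D1 has close relatives and its 9 probe sets gave only 2 calls.

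Several of the largest differences were outside these lists. Tafa2, a secreted chemokine-like protein of neurons, read 9.92, 9.66, 9.21 and 9.32 at E18 and 5.85, 6.25 and 5.88 in E14 GFP-low cells (difference 3.53 ± 0.20, adjusted p = 1.91e-06). Fgf14, an intracellular regulator of sodium channels, read 8.69, 8.21, 8.59 and 8.16 against 5.96, 5.49 and 6.06 (difference 2.58 ± 0.19, adjusted p = 7.70e-06). Thsd7a, St6galnac3 and the genes 6330415B21Rik, 5031426D15Rik and B230216N24Rik, which have clone names only, were also among the 15 largest rises, at 2.52, 2.54, 2.91, 2.89 and 2.67 on the log2 scale. St6galnac3 read -0.41 (adjusted p = 0.383) with a pseudocount of 1, where another of its 3 probe sets was used.

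Among the largest falls, Ttc39b read 5.41, 5.64, 5.58 and 5.56 at E18 and 8.61, 8.48 and 8.49 in E14 GFP-low cells (difference -2.98 ± 0.16, adjusted p = 1.68e-06). Zfp521, a zinc finger factor of early neural commitment, read 5.93, 5.79, 6.10 and 6.35 against 8.83, 8.59 and 8.83 (difference -2.71 ± 0.18, adjusted p = 6.41e-06). The manganese exporter gene Slc30a10 read 6.15, 6.28, 6.56 and 6.83 against 9.13, 9.20 and 8.90 (difference -2.62 ± 0.17, adjusted p = 6.41e-06). The E14 GFP-high arrays read 7.79 to 8.32 for Ttc39b, 8.04 to 8.60 for Zfp521 and 9.12 to 9.29 for Slc30a10, above all E18 arrays. Rhbdl3, Rab5c, Kif26a and the potassium channel gene Kcng1 also fell, with differences of -2.65 ± 0.20, -2.77 ± 0.35, -2.6 ± 0.30 and -2.70 ± 0.32. Papola, the poly(A) polymerase, was lower on its brightest probe set (difference -3.0 ± 0.28, adjusted p = 3.92e-05), while another of its 5 probe sets was called higher (0.91, adjusted p = 0.0462).

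Some calls given above were lost with the Gapdh covariate or with the mean of probe sets. The Gapdh ratio itself differed between the groups (log2 difference -1.39), so the covariate also lowers the precision of the contrast. Whether a lost call reflects the ratio or this lower precision was not tested. With the Gapdh covariate, the calls of Tubb3, Tbr1, Lmo4, Lhx5, Dcc, Grin2b, Ccnd1 and H2-D1 were lost. So were those of Pax6, Sox9, Aldoc, Id1, Tnr, Snap25, Map2, Mki67, Cxcr4, Notch2 and Hbb-y. The Tnr call was also lost without E14 GFP-low replicate 3. With the mean of a gene's probe sets, the calls of Tle4, Nfia, Fgfr3, Lamb1, Grin2b, Pfkp, Abca1, H2-D1, Papola and Top2a were lost. The calls of Sox9, Aldoc, Aqp4, Map2, Notch2, Pdgfra and Hbb-y were lost there too.

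**Figure D5:**
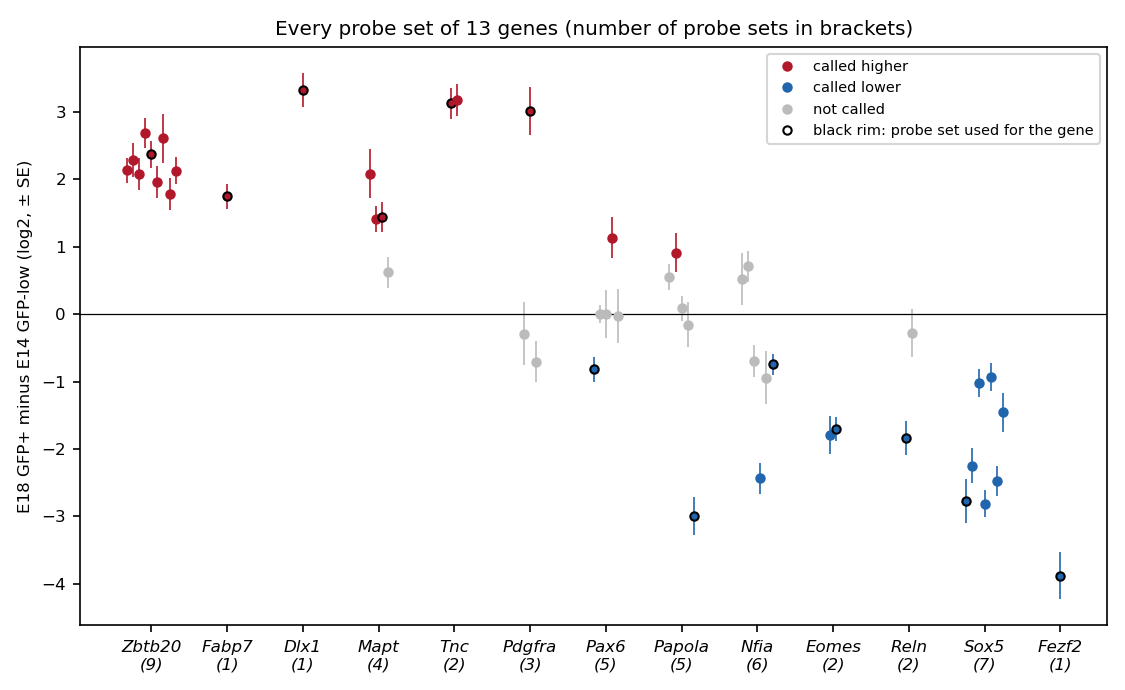
Difference E18 minus E14 GFP-low (log2, bars are the SE) for each probe set of 13 genes, with the number of probe sets in brackets; red were called higher, blue lower, grey neither, and a black rim marks the probe set used for the gene. All 9 probe sets of Zbtb20 lie above 0 and all 7 of Sox5 below, while those of Pax6, Papola and Pdgfra disagree.

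Markers of cell types outside the neural lineage were mostly at background. Over all genes, 6.02% were called higher and 11.4% lower at E18. Of 18 endothelial genes 11 lay at or below background in both groups, and only Slco1c1, a thyroid hormone transporter of brain endothelium that is also known from astroglia, was called, at 7.65, 7.71, 8.54 and 8.19 against 4.50, 4.35 and 5.02 (difference 3.40 ± 0.31, adjusted p = 3.27e-05). The defining endothelial gene Pecam1 had means of 4.30 and 4.34. Of 19 microglial genes none was called and 11 were at background in both groups, although C1qc and P2ry12 read 4.15 to 5.69 and 4.6 to 6.04 at E18 against 4.09 to 4.38 and 4.12 to 4.85. Of 21 choroid plexus, hem and ependymal genes none was called and 17 were at background in both groups. Of 21 pericyte and meningeal genes Pdgfra was higher and Cxcl12 2.86-fold lower (adjusted p = 7.65e-05), and 11 were at background. Summed intensities overlapped between the groups for endothelial genes (834 to 1264 at E18, 812 to 961 at E14 GFP-low), microglial genes (417 to 892 and 374 to 564) and choroid plexus genes (376 to 535 and 268 to 498).

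Genes of red blood cells differed between arrays within a group. Hbb-y, the embryonic beta globin, read 4.39, 4.12, 6.37 and 6.42 at E18 and 6.94, 7.92 and 9.83 in E14 GFP-low cells (difference -2.91 ± 0.78, adjusted p = 0.0221), a call lost in 8 of 21 alternatives, among them without E18 replicate 2 or 3 and without E14 GFP-low replicate 2 or 3. Alas2, the erythroid haem synthesis enzyme, read 5.51, 5.78, 7.12 and 7.25 against 4.14, 4.12 and 4.27 (difference 2.24 ± 0.42, adjusted p = 0.00321) and was higher, a call lost with the Gapdh covariate. Hbb-b2, an adult beta globin, was not called on its brightest probe set (5.45, 6.54, 6.24 and 7.41 against 4.93, 5.13 and 6.07, adjusted p = 0.118). Its other probe set was called higher (1.62, p adjusted over all probe sets = 0.00091). Of 13 erythroid genes 2 were higher and 2 lower (none either way with the Gapdh covariate), against 6.02% and 11.4% of all genes. Their summed intensities were 739 to 1183 at E18 and 879 to 1711 in E14 GFP-low cells, and the part of red blood cells in other differences was not tested. Globin genes share much of their sequence, so their probe sets may not separate them.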

How the data were processed

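RNA of sorted cells was biotin-labelled and hybridised to Affymetrix arrays, with RNeasy extraction and MessageAmp II labelling for all 11 Prominin-selected arrays, per the labels' protocols. The deposited values are 1 linear intensity per probe set. From the values, every array had been scaled to one trimmed mean between the 2nd and 98th percentiles. Which summarisation software made them is not stated in the labels used here.

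The 64 control probe sets were set aside, and log2(intensity + 16) of the remaining 45037 was quantile-normalised over 17 arrays. Of these probe sets, 34945 had 1 gene symbol, 932 several and 9160 none. A gene was read by its probe set of highest mean, which gave 18193 genes. Other probe sets of a gene are described only where stated, and they need not share its call. The model was fitted on 11 arrays with limma 3.58.1 (lmFit and eBayes, R 4.3.3), and the contrast was E18 minus E14 GFP-low. On simulated data, 62.7% of genes shifted by 1 log2 unit and 8.96% of those shifted by 0.5 were called, with 4 false calls. The noise was independent and normal and only genes above the median level were shifted, so these rates do not cover dim genes. The number of arrays limits the precision, and no array pair was identical.

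The alternatives tried numbered 21: other pseudocounts (1 and 64), scalings, array sets, probe set means, a filter on the dimmest 40%, limma's trend and robust options, the Gapdh ratio as a covariate, replicate number as a block and arrays left out. The last scaling (quantiles over genes only) and the joint removal of E18 replicate 3 and E14 GFP-low replicate 2 were added after seeing the data. The samples and gene lists were chosen with earlier results of these data known. The genes named are a fixed set of markers, the 15 largest rises and falls with non-overlapping arrays whose higher group was above the median gene, and up to 6 called members per list with the lowest p (2 where a list had none). Further genes, such as Sox10, Aqp4, Mki67, Map2 and Hbb-b2, were chosen after their values were seen. A gene that the rule names is not reported here.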

Additional observations from a re-analysis of the deposited data

Results flagged for a closer look

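A gene or control was set aside for a closer look where 1 array of a group of 4 stood apart, with its gap to the nearest array as a share of the group's range above Dixon's 95% critical value. Of 220 items examined, 12 met this, and some are met by chance.

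E18 replicate 5 was lowest for Sox5 (ratio 0.89) and for Mfng (0.864). E18 replicate 4 was highest for the channel gene Kcng1 (0.973), Cxcl12 (0.856) and Sox2 (0.835), and lowest for Cux2 (0.905). E18 replicate 3 was highest for Tcf7l1 (0.965), the glycolytic gene Tpi1 (0.853) and Ifitm2 (0.9), and lowest for Cdh2 (0.871). Among the controls, E18 replicate 2 was lowest for the middle 18S probe set (0.838) and E18 replicate 3 was lowest for dap (0.912). No call among these genes was lost when any 1 array was left out.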

How the results depend on the processing

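The count of changed genes (3166) lay between 2286 and 3056 when each array was left out in turn, lowest without E14 GFP-low replicate 2, and between 2174 and 3806 in the other alternatives apart from 2. With the Gapdh ratio as a covariate it was 1387, of which 1159 were among the 3166. With the replicate number as a block it was 1128, but same-numbered arrays did not deviate together (r = 0.026 and -0.002), so the numbers are not taken as a pairing. Of 198 called genes named by the rule or chosen, 110 kept their call and sign in every alternative that tested them (the filter on the dimmest genes left some untested), 35 lost it when 1 array was left out, 58 with the covariate and 58 with the block. The sign turned for Pdgfra (-1.46) and St6galnac3 (-0.41) with a pseudocount of 1, Lss (0.36) with quantiles over 7 arrays, Pax6 (0.062) and Uqcrb (0.17) with the mean of probe sets, Kcnj13 (-0.024) with the covariate, and Lin28b with median centring (-0.03), the block (-0.20) and without E14 GFP-low replicate 1 (-0.039, up to 0.312 without replicate 3). For Pdgfra, St6galnac3 and Lss another probe set was used there. For Pax6 and Uqcrb the averaged probe sets differed in sign (-0.82 to 1.14 for Pax6, -0.52 and 0.87 for Uqcrb). For Kcnj13 and Lin28b the cause was not tested. Signal near background limits 449 of the changed genes, whose lower group lay at or below it.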
